A study of Danio rerio with 6 samples.

Results

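Described here are 2 sorted populations of GFP-positive cells of adult zebrafish skin (age 3 months), GFP+DsRed- cells from csf1rDM fish and GFP+DsRed+ cells from control fish, over every gene with at least 1 CPM (a read count scaled to a fixed library total) in 2 or more of the 4 libraries. That rule kept 19418 of the 32520 genes listed, 15913 of them with 1 CPM or more in all 4 libraries, 717 through the csf1rDM libraries alone and 854 through the control libraries alone. The csf1rDM fish were csf1ra j4e1/j4e1 and csf1rb sa1503/sa1503, homozygous for mutant alleles of each of the genes that encode zebrafish receptors for colony stimulating factor 1 (CSF1). The control fish were wild type at both genes. All fish, controls included, were untreated and carried tg(mpeg1-EGFP), which puts GFP under the promoter of the macrophage gene mpeg1, together with tg(Kdrl:Cre) and tg(act2b:loxP-STOP-loxP-DsRedexpress). In these fish Cre, made in endothelium and in the hemogenic endothelium that buds off blood stem cells, permanently switches on DsRed in a cell and its descendants. One more group, GFP+DsRed- cells from control fish, was sequenced with them and is used here for the shared estimate of spread and as context. Each group had 2 libraries (csf1rDM replicates 2 and 3, control GFP+DsRed+ replicates 1 and 3, control GFP+DsRed- replicates 1 and 2), and paired values below are given in this order of replicates. The 2 groups compared differ in genotype and in DsRed status at once, so the effects of the 2 cannot be told apart here. The lineage mark has limits of its own, since a macrophage whose forebears never made kdrl stays unmarked as well. The sources used here do not give the number of fish per library or say that replicates came from separate fish, so p-values measure the spread between these samples. The groups are called csf1rDM cells, control DsRed+ cells and control DsRed- cells from here on.

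Macrophages are phagocytes of the blood lineage that engulf dying cells, microbes and debris and break them down in lysosomes. Their survival and growth depend in many tissues on signalling through the CSF1 receptor, a tyrosine kinase whose ligands are CSF1 and interleukin 34. Fish skin also holds metaphocytes, mpeg1-expressing cells of the epidermis that resemble macrophages but do not come from blood. Metaphocytes are reported to show no phagocytic response to injury or infection, and carry epithelial junction genes.

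The csf1rDM libraries held 5072633 and 4024255 reads assigned to genes, against 10069843 and 14816042 in the control DsRed+ libraries. The smallest level distinguished from 0, set at 3 reads, therefore lay at 0.591 and 0.745 CPM in csf1rDM cells and at 0.298 and 0.202 CPM in control DsRed+ cells, and covers counting error only. Across genes, Pearson's r of log2(CPM + 1) was 0.957 between the csf1rDM replicates, 0.978 between the control DsRed+ replicates and 0.794 to 0.836 between the groups; genes are not independent replicates. Of the mutated genes themselves, csf1ra (ENSDARG00000102986) had 1.40 and 2.25 CPM in csf1rDM cells and 1081 and 1124 CPM in control DsRed+ cells, and csf1rb (ENSDARG00000053624) had no read in csf1rDM cells and 34.1 and 47.7 CPM in control DsRed+ cells. Control DsRed- cells had 102 and 86.9 CPM of csf1ra and 0.550 and 0.600 CPM of csf1rb. Neither allele removes the gene, so these levels are not a check of the genotype. The sum of 12 macrophage markers, with csf1rb at 0 in csf1rDM cells, was 365 and 266 CPM in csf1rDM cells, against 4981 and 5789 CPM in control DsRed+ cells. Of the marker sums of other cells, that of 6 keratinocyte genes was 18442 and 15679 CPM in csf1rDM cells and 12139 and 7906 CPM in control DsRed+ cells. That of 5 fibroblast genes was 2893 and 1136 CPM in csf1rDM cells and 4681 and 4643 CPM in control DsRed+ cells. In a bulk sample fewer cells of a type and less RNA per cell cannot be told apart. The csf1rDM replicate 3 library stood apart in the genes of sterol synthesis, which were much lower there than in replicate 2, and results that rest on it are given with and without it.

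The 2 populations differed widely, and the differences were larger on the side of loss. Of the 20382 genes tested in the 6 libraries, 1648 (8.09%) differed by more than 2 on the log2 scale at an adjusted p below 0.05 (limma, Benjamini-Hochberg). A gene that met both is said here to pass the threshold, and to have risen or fallen. In csf1rDM cells 498 genes (2.44%) were higher and 1150 genes (5.64%) were lower than in control DsRed+ cells. With no demand on the size of the change, 6610 genes (32.4%) differed at an adjusted p below 0.05, of which 2879 genes (14.1%) were higher and 3731 genes (18.3%) lower. Counts in the gene lists below are to be read beside these shares of all genes tested, called the background. The median log2 fold change was 2.43 among the genes passing upward and -2.86 among those passing downward, beside -0.08 over all 19418 genes. Falls of more than 5 on the log2 scale were seen for 117 genes and rises of that size for 11 genes. Of the genes that fell, 82 were without any csf1rDM read, and 337 had entered the comparison only through their level in control DsRed+ cells. The corresponding numbers among the genes that rose were 8 and 110. For such genes the fitted fold change depends on the 1 CPM added before taking logs, and is no bound. The smallest fold change to pass was 2.0003 on the log2 scale, so the threshold separates genes that hardly differ from one another.

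In terms of reads, the genes lower in csf1rDM cells took 1.40% and 1.36% of the csf1rDM libraries, against 11.7% and 13.2% of the control DsRed+ libraries. The genes higher in csf1rDM cells took 4.06% and 4.93% of the csf1rDM libraries, against 0.828% and 0.548% of the control DsRed+ libraries. In the control DsRed- libraries the lower genes took 2.41% and 1.95%, and the higher genes 2.41% and 2.43%. These shares describe the genes that the test selected. The fall therefore covered more of the transcriptome of control DsRed+ cells than the rise covered of that of csf1rDM cells, as the plot of fold change against level shows.

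**Figure D1:**
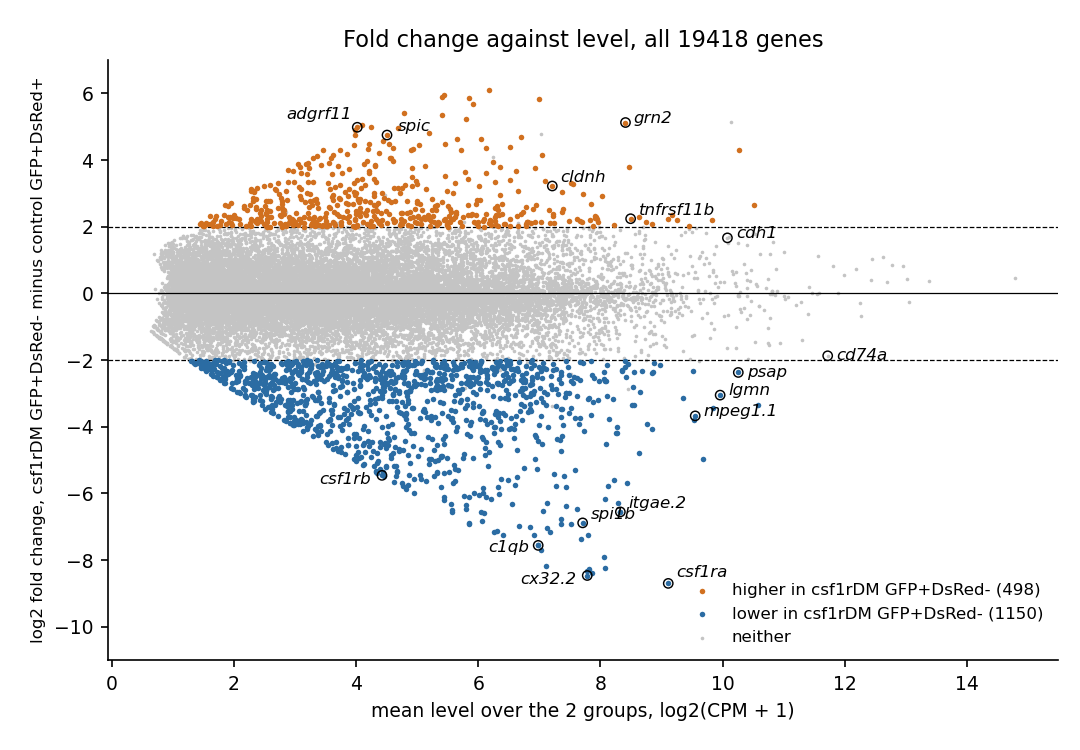
Log2 fold change of csf1rDM GFP+DsRed- cells minus control GFP+DsRed+ cells (vertical axis) against the mean level of both groups as log2(CPM + 1) (horizontal axis), 1 point per gene for 19418 genes. Orange points are the 498 genes past the threshold and higher in csf1rDM cells, blue points the 1150 lower ones, dashed lines mark the fold threshold of 2, and the falls reach -8.70 for csf1ra.

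Some regulatory genes of the macrophage lineage, spi1b and tfec among them, fell far, while most did not pass the threshold. Of 28 measured transcription factors of myeloid cells, 8 fell past the threshold and 1 rose, with a list median of -0.95. The gene spi1b encodes a copy of PU.1, the factor that opens the myeloid program, and had 2.40 and 3.0 CPM in csf1rDM cells, against 401 and 427 CPM in control DsRed+ cells (-6.89 ± 0.23 SE, adjusted p = 3.5e-05). Such values in brackets after a gene give its log2 fold change on the log2(CPM + 1) scale, csf1rDM minus control DsRed+, with 2 libraries per group. Levels of irf8, required for macrophage formation in zebrafish embryos, were 4.95 and 13.7 CPM in csf1rDM cells and 126 and 162 CPM in control DsRed+ cells (-4.02 ± 0.42 SE, adjusted p = 0.00065). For both genes the csf1rDM libraries lay far below the control libraries. Further factors that fell included tfec (-6.11), runx3 (-2.34), irf5 (-2.21) and id2b (-2.17). The falls of runx3 (-1.85 without csf1rDM replicate 3), irf5 (-1.95 without control DsRed+ replicate 3) and id2b (-1.86 without control DsRed+ replicate 1) no longer reached the fold threshold on leaving out 1 library.

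The second copy of PU.1 moved less. Levels of spi1a were 137 and 104 CPM in csf1rDM cells and 318 and 333 CPM in control DsRed+ cells, a log2 fold change of -1.51 at an adjusted p of 0.013, short of the fold threshold. The C/EBP factors cebpa (-1.01) and cebpb (-0.89) were likewise lower at an adjusted p of 0.015 for cebpa and 0.0068 for cebpb, without reaching it. The factor that went the other way was spic, a relative of PU.1 that in mouse is needed for the macrophages recycling iron from red cells. It had 56.2 and 29.6 CPM in csf1rDM cells and 0.600 and 0.50 CPM in control DsRed+ cells (4.75 ± 0.41 SE, adjusted p = 0.00032). Control DsRed- cells had 97.5 and 44.3 CPM of spic.

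Ligands of the CSF1 receptor were measured in both populations at low levels. Levels of il34 were 26.0 and 16.2 CPM in csf1rDM cells and 5.40 and 5.15 CPM in control DsRed+ cells, a difference of 1.73 on the log2 scale (adjusted p = 0.0037). Those of csf1a were 3.95 and 5.50 CPM in csf1rDM cells against 2.0 and 1.70 CPM in control DsRed+ cells (0.96, adjusted p = 0.042). Both genes were higher in csf1rDM cells without passing the fold threshold. The ligand gene csf1b, the other copy of CSF1, had 37.9 and 22.1 CPM in csf1rDM cells against 17.5 and 13.3 CPM in control DsRed+ cells (0.82, adjusted p = 0.087) and did not pass the test. The receptor gene csf1rb passed in all libraries and had too few libraries above 1 CPM to be tested on leaving out either control DsRed+ replicate.

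Genes of leukocyte signalling and adhesion were mostly lower in csf1rDM cells. Of 35 signalling and cytoskeletal genes of leukocytes, 12 fell past the threshold and none rose past it, and 24 were lower at an adjusted p below 0.05. Their median log2 fold change was -1.78. The steepest fall among them was that of fcer1g, the signalling chain shared by Fc receptors, with 2.40 and 5.25 CPM in csf1rDM cells and 385 and 385 CPM in control DsRed+ cells (-6.46 ± 0.29 SE, adjusted p = 5e-05). The kinase syk, which acts downstream of that chain, had 34.7 and 20.6 CPM in csf1rDM cells against 245 and 315 CPM in control DsRed+ cells (-3.39). The phosphatase ptpn6, which opposes such signals, had 31.1 and 20.1 CPM in csf1rDM cells against 220.5 and 261 CPM in control DsRed+ cells (-3.27). The groups did not overlap for these 3, as for every gene past the threshold. Some members kept a sizeable level in csf1rDM cells, as for the actin bundler lcp1 with 125 and 72.1 CPM, against 271 and 390.3 CPM in control DsRed+ cells (-1.83, adjusted p = 0.017). The Src-family kinase hck had 148 and 126 CPM in csf1rDM cells against 260.4 and 403 CPM in control DsRed+ cells (-1.30, adjusted p = 0.051), so its difference did not pass the test.

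Among 6 leukocyte integrins, which bind cells to vessel walls and to each other, 4 fell past the threshold. The subunits itgae.2 and itgae.1, related to the integrin that in mammals holds lymphocytes and dendritic cells to E-cadherin, had log2 fold changes of -6.56 and -5.75. Levels of itgae.2 were 6.15 and 6.0 CPM in csf1rDM cells and 648 and 620.5 CPM in control DsRed+ cells, with replicates close together in both groups. The remaining 2 were itga4, at 1.40 and 5.25 CPM in csf1rDM cells against 140.2 and 90.5 CPM in control DsRed+ cells (-4.95), and its partner itgb7. Levels of itgb7 were 5.15 and 13.2 CPM in csf1rDM cells against 155 and 205 CPM in control DsRed+ cells (-4.33). The pan-leukocyte phosphatase gene ptprc, outside the integrins, had 15.0 and 10.7 CPM in csf1rDM cells and 571 and 785 CPM in control DsRed+ cells (-5.68). The common leukocyte subunit itgb2 was lower by a smaller amount, 153 and 130.4 CPM in csf1rDM cells and 474 and 570.0 CPM in control DsRed+ cells (-1.94, adjusted p = 0.012).

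The phagocyte NADPH oxidase makes the superoxide that kills engulfed microbes, and 3 of its 5 measured subunits fell past the threshold. Its catalytic subunit cybb had 61.9 and 39.8 CPM in csf1rDM cells and 419 and 478 CPM in control DsRed+ cells (-3.21 ± 0.31 SE, adjusted p = 0.0005). The cytosolic subunit ncf4 fell by a similar amount (-3.05).

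**Figure D2:**
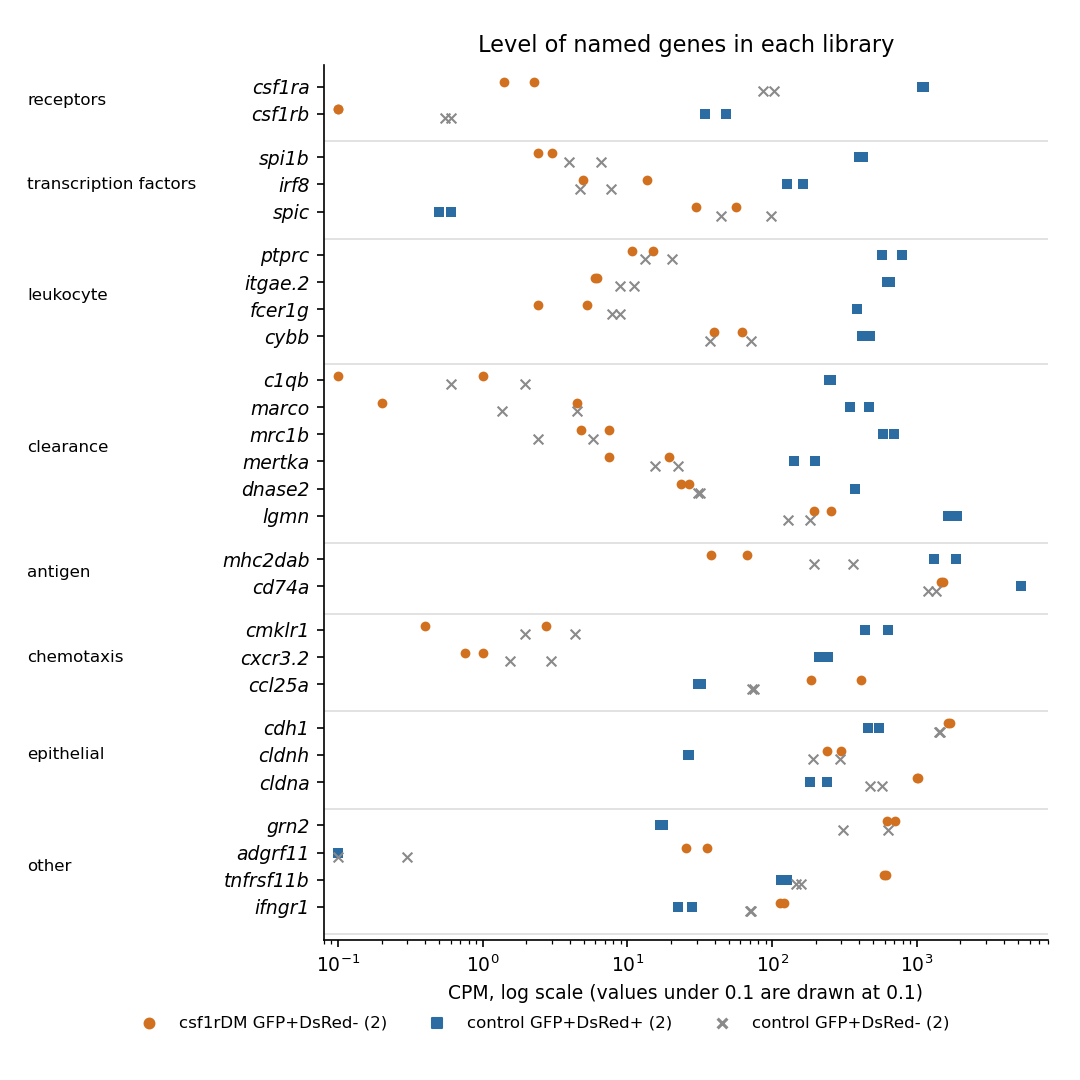
Level of 27 named genes in each library in CPM on a log axis, ordered by role: circles are the 2 csf1rDM GFP+DsRed- libraries, squares the 2 control GFP+DsRed+ libraries and crosses the 2 control GFP+DsRed- libraries. Most of the genes shown passed the threshold, and they were picked with earlier results of these data known. Circles and squares do not overlap in any of them, as in every gene past the threshold. Circles lie to the left for myeloid genes such as spi1b, c1qb and mrc1b and to the right for spic, ccl25a, cldnh and grn2.

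Genes for recognising and engulfing material included the list with the most complete fall. All 3 measured C1q genes, whose product tags dying cells and immune complexes for uptake, passed downward. Levels of c1qb were 0 and 1.0 CPM in csf1rDM cells and 254 and 247 CPM in control DsRed+ cells (-7.56 ± 0.41 SE, adjusted p = 7.2e-05). Those of c1qc were 0.400 and 1.0 CPM in csf1rDM cells against 233 and 242 CPM in control DsRed+ cells (-7.24). For c1qa they were 0 and 0.50 CPM in csf1rDM cells against 124 and 138 CPM in control DsRed+ cells (-6.84). Several of these csf1rDM values lay at or near the 3-read floor. The 3 C1q genes summed to 5.15 and 2.0 CPM in control DsRed- cells, so their low level was not particular to csf1rDM cells.

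Of 21 engulfment and scavenger receptor genes, 8 fell past the threshold and none rose, with a median of -1.55. Levels of marco, a scavenger receptor for bacteria and particles, were 0.200 and 4.50 CPM in csf1rDM cells and 464 and 347 CPM in control DsRed+ cells (-7.37 ± 0.70 SE, adjusted p = 0.00045). The mannose receptor gene mrc1b had 4.75 and 7.5 CPM in csf1rDM cells against 690.5 and 579.6 CPM in control DsRed+ cells (-6.57 ± 0.33 SE, adjusted p = 6.4e-05). The groups lay far apart for both, although the csf1rDM replicates of marco were uneven. The TAM receptor mertka, which binds dying cells through bridging proteins, had 7.5 and 19.4 CPM in csf1rDM cells and 141 and 198 CPM in control DsRed+ cells (-3.74). Further falls were those of the phosphatidylserine receptor havcr1 (-6.21), of stab1 (-4.38), of mrc1a (-4.22), of havcr2 (-2.99) and of scarf1 (-2.81). At an adjusted p below 0.05, 14 genes of the list were lower (background 18.3%). A further 3 were higher, a share near the background of 14.1%. The 3 higher genes were dock1 (1.43) and the LRP1 genes lrp1aa (0.75) and lrp1ab (0.62). Of these, lrp1ab had 851 and 859.7 CPM in csf1rDM cells and 556 and 510.4 CPM in control DsRed+ cells. All 3 encode proteins that are also used outside phagocytes.

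Most lysosomal genes were lower in csf1rDM cells. Of 55 measured genes of lysosomal enzymes, membrane proteins and proton pumps, 20 fell past the threshold, 38 were lower at an adjusted p below 0.05 and 2 were higher, with a median of -1.54. The acid nuclease dnase2, which digests the DNA of engulfed cells, had 23.5 and 26.6 CPM in csf1rDM cells and 375 and 373 CPM in control DsRed+ cells (-3.92 ± 0.15 SE, adjusted p = 4.4e-05). The asparagine-cleaving protease lgmn had 193 and 254 CPM in csf1rDM cells against 1888 and 1648 CPM in control DsRed+ cells (-3.05 ± 0.21 SE, adjusted p = 0.00013). The gene psap, for the precursor of the saposins that help to degrade sphingolipids, had 396 and 425 CPM in csf1rDM cells against 1980.5 and 2094 CPM in control DsRed+ cells (-2.37 ± 0.14 SE, adjusted p = 9.2e-05). Replicates of each group agreed closely for dnase2 and psap, and less so for lgmn in csf1rDM cells. The csf1rDM cells kept a sizeable level of psap. The cathepsins ctsba (-2.34), ctsc (-2.38), ctsd (-2.36), ctsh (-2.21) and ctsz (-2.21) passed downward. Others differed less, as for ctsk at 118 and 149 CPM in csf1rDM cells against 173 and 223 CPM in control DsRed+ cells (-0.63, adjusted p = 0.039). The cathepsin L gene ctsla was higher, with 333 and 364 CPM in csf1rDM cells and 171 and 152 CPM in control DsRed+ cells (1.04, adjusted p = 0.0044).

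The 4 granulin genes, secreted factors whose processed forms act in lysosomes, did not move together. Levels of grn1 fell to 32.5 and 34.3 CPM in csf1rDM cells, against 209 and 191 CPM in control DsRed+ cells (-2.61). Those of grna fell to 171 and 201 CPM in csf1rDM cells against 727 and 789 CPM in control DsRed+ cells (-2.09). Its call was lost on leaving out a library (-1.99 without csf1rDM replicate 2). Levels of grnb were 45.7 and 40.5 CPM in csf1rDM cells against 68.5 and 80.3 CPM in control DsRed+ cells (-0.84, adjusted p = 0.011). The opposite was seen for grn2 (ENSDARG00000088641), at 621 and 702 CPM in csf1rDM cells and 17.5 and 16.9 CPM in control DsRed+ cells (5.12 ± 0.28 SE, adjusted p = 7.8e-05). Control DsRed- cells held 634 and 311 CPM of grn2.

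Genes presenting antigen on MHC class II molecules were lower but far from absent. Of 14 such genes 4 fell past the threshold, 9 were lower at an adjusted p below 0.05 and none was higher, with a median of -1.40. The beta chain gene mhc2dab had 67.2 and 37.8 CPM in csf1rDM cells and 1302 and 1854 CPM in control DsRed+ cells (-4.98 ± 0.36 SE, adjusted p = 0.00016). The invariant chain gene cd74a, whose product guides these molecules to their loading compartment, kept 1525 and 1475 CPM in csf1rDM cells, against 5261 and 5249.6 CPM in control DsRed+ cells (-1.87 ± 0.16 SE, adjusted p = 0.00031). Its fall was thus clear of the replicate spread and short of the fold threshold, as was that of cd74b (-1.49, adjusted p = 0.00058). The costimulatory genes cd83 (-3.35) and cd40 (-2.08) passed downward, as did the peptide-processing cathepsin ctss2.1 (-2.57), although cd40 was lost on leaving out a library (-1.67 without control DsRed+ replicate 3). MHC class I and its peptide-loading genes had a median of -0.17 over 19 genes, with none falling past the threshold and mhc1uma rising, at 22.3 and 15.9 CPM in csf1rDM cells and 0.900 and 0 CPM in control DsRed+ cells (3.85).

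Genes of cytokines and their receptors moved in both directions, with more falls than rises past the threshold. Of 56 genes, 14 fell past the threshold (background 5.64%) and 5 rose (background 2.44%), with a median of -0.36. The receptor of granulocyte colony stimulating factor, csf3r, had 1.80 and 2.5 CPM in csf1rDM cells and 353 and 296 CPM in control DsRed+ cells (-6.77 ± 0.29 SE, adjusted p = 5e-05). The shared beta chain csf2rb had 4.15 and 10.195 CPM in csf1rDM cells against 443 and 622 CPM in control DsRed+ cells (-6.18). The receptor kinase flt3, related to the CSF1 receptor and needed for dendritic cell formation in mammals, had 0 and 0.250 CPM in csf1rDM cells against 24.7 and 72.2 CPM in control DsRed+ cells (-5.37). Both csf1rDM libraries were below the 3-read floor for flt3, and its control replicates lay wide apart. Receptors il10ra (-3.73), il2rga (-3.53), il6r (-3.43) and tnfrsf1b (-2.99) fell too. Inflammatory cytokines fell as well. Levels of tnfa were 0 and 1.0 CPM in csf1rDM cells against 14.4 and 46.5 CPM in control DsRed+ cells (-4.34). Levels of tnfb were 16.4 and 16.9 CPM in csf1rDM cells against 111 and 209 CPM in control DsRed+ cells (-3.18). Interleukin 1 beta, il1b, had 25.6 and 68.8 CPM in csf1rDM cells against 156 and 266 CPM in control DsRed+ cells (-2.31, adjusted p = 0.017), a call lost on leaving out a library (-1.63 without csf1rDM replicate 2).

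The cytokine and receptor genes that rose were ifngr1, kita, il12ba, tnfrsf11b and il22ra2. The interferon gamma receptor chain ifngr1 had 113 and 121 CPM in csf1rDM cells and 28.0 and 22.2 CPM in control DsRed+ cells (2.12 ± 0.18 SE, adjusted p = 0.00028). The soluble receptor gene il22ra2, whose product in mammals binds and blocks interleukin 22, had 23.7 and 33.8 CPM in csf1rDM cells against 1.40 and 2.05 CPM in control DsRed+ cells (3.41 ± 0.30 SE, adjusted p = 0.00032). Levels of tnfrsf11b, which encodes osteoprotegerin, the decoy receptor for the osteoclast factor RANKL, were 608 and 589 CPM in csf1rDM cells and 126 and 116 CPM in control DsRed+ cells (2.24 ± 0.15 SE, adjusted p = 0.00013). Replicates of tnfrsf11b lay close together in each group, and control DsRed- cells, at 146 and 157 CPM, lay near the control DsRed+ level. The rises of ifngr1 (1.94 without control DsRed+ replicate 3), kita (1.92 without csf1rDM replicate 3) and il12ba (1.45 without csf1rDM replicate 3) did not reach the fold threshold on leaving out 1 library, and 3 cytokine genes rose without control DsRed+ replicate 3.

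Several receptors that sense microbes fell. Of 40 Toll-like receptor and signalling genes, 11 fell past the threshold, none rose past it, 21 were lower and 2 higher at an adjusted p below 0.05, with a median of -0.73. Of the falls 10 were receptors: tlr9 (-4.73) and tlr21 (-3.33), which read DNA, tlr7 (-3.06), tlr8a (-2.46), tlr8b (-4.32), tlr3 (-2.75) and tlr22 (-4.71), which read RNA, and tlr1 (-3.37), tlr2 (-3.24) and tlr18 (-2.53) at the cell surface. The fall of tlr8a was lost on leaving out a library (-1.69 without control DsRed+ replicate 1). Levels of tlr22 were 5.15 and 8.446 CPM in csf1rDM cells and 179 and 199.8 CPM in control DsRed+ cells. The adaptor myd88, used by most of these receptors and made by many cell types, differed little, at 49.1 and 49.5 CPM in csf1rDM cells against 65.9 and 88.4 CPM in control DsRed+ cells (-0.69, adjusted p = 0.028).

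Receptors for chemoattractants showed one of the broadest falls. Of 28 measured genes, 14 fell past the threshold and 1 rose, with a median of -1.66. The chemerin receptor gene cmklr1 had 0.400 and 2.75 CPM in csf1rDM cells and 627 and 435 CPM in control DsRed+ cells (-7.92 ± 0.49 SE, adjusted p = 9.9e-05). The interferon-induced chemokines are sensed through the CXCR3 receptors, of which cxcr3.2 had 1.0 and 0.75 CPM in csf1rDM cells against 209.9 and 244 CPM in control DsRed+ cells (-7.00 ± 0.26 SE, adjusted p = 4.2e-05). For cxcr3.2 both csf1rDM libraries were near the floor. Those of cmklr1 were uneven, with replicate 2 below the floor and replicate 3, at 11 reads, above it. The receptor cxcr4b, which holds cells to sources of Cxcl12, kept 112 and 78.27 CPM in csf1rDM cells, against 683 and 719 CPM in control DsRed+ cells (-2.95). The exception was ccr11.1, at 10.3 and 8.0 CPM in csf1rDM cells and 0.10 and 0.0999 CPM in control DsRed+ cells (3.21, adjusted p = 0.00023). Without csf1rDM replicate 3, 0 receptor genes rose, since ccr11.1 then had too few libraries above 1 CPM to be tested, and without either control DsRed+ replicate 3 rose. The scavenging receptors ackr3b (1.95) and ackr4b (1.88), which clear chemokines without signalling through G proteins, were higher at an adjusted p of 0.0026 for ackr3b and 0.003 for ackr4b.

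Chemokine genes split in both directions. Of 31 genes 10 fell past the threshold and 5 rose, and the list median, 0.24, was -0.45 without csf1rDM replicate 3. The largest fall was that of cxcl19, at 0 and 1.0 CPM in csf1rDM cells and 213 and 287 CPM in control DsRed+ cells (-7.55). Most of the others belonged to the ccl34 and ccl35 clusters, with ccl34a.4 (-7.17), ccl34b.1 (-5.47), ccl34b.8 (-5.33), ccl34a.3 (-3.81), ccl35.1 (-4.20) and ccl35.2 (-3.60). These genes lie in families of near copies, so the assignment of reads between members is uncertain. The number that fell was 4 without control DsRed+ replicate 1 and 5 without replicate 3, in fits that did not test genes above 1 CPM in a single remaining library.

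The chemokines that rose were ccl25a, ccl19a.2, ccl19b, ccl20a.3 and cxcl14. Levels of ccl25a, related to the chemokine that attracts T cells to thymus and gut in mammals, were 185 and 413 CPM in csf1rDM cells and 30.9 and 32.3 CPM in control DsRed+ cells (3.03 ± 0.33 SE, adjusted p = 0.00081). Its csf1rDM replicates lay apart, both above the controls. The same held for ccl19a.2, a relative of the chemokine that in mammals draws T cells and dendritic cells to lymph nodes, at 20.9 and 94.9 CPM in csf1rDM cells against 4.0 and 2.65 CPM in control DsRed+ cells (3.38, adjusted p = 0.0064). It held too for ccl20a.3, at 13.6 and 40.8 CPM in csf1rDM cells against 1.5 and 2.40 CPM in control DsRed+ cells (3.05, adjusted p = 0.0043). Levels of cxcl14, a chemokine of mammalian epithelia, were even between replicates, at 31.9 and 40.8 CPM in csf1rDM cells against 7.2 and 7.44 CPM in control DsRed+ cells (2.102). The rises of cxcl14 (1.94 without csf1rDM replicate 3) and ccl19b (1.68 without csf1rDM replicate 3) were lost on leaving out 1 library. Without csf1rDM replicate 2, 8 chemokine genes rose, and 3 rose without replicate 3.

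Guidance receptors and junction channels also divided. Of 47 semaphorin, plexin and neuropilin genes, 8 fell past the threshold and 3 rose. The falls included sema4aa (-5.81) and sema4ab (-3.18), copies of an immune semaphorin, the receptors plxnd1 (-4.36), plxnc1 (-2.97) and plxna2 (-3.54), and the co-receptors nrp1b (-2.73) and nrp2b (-3.59). The rises were SEMA4D, sema6dl and plxnb3, the last a member of the plexin B family, whose members bind class 4 semaphorins. Levels of SEMA4D were 57.8 and 53.2 CPM in csf1rDM cells and 2.70 and 3.35 CPM in control DsRed+ cells (3.77). Levels of plxnb3 were 40.03 and 51.4 CPM in csf1rDM cells against 11.14 and 8.59 CPM in control DsRed+ cells (2.05), lost on leaving out a library (1.85 without control DsRed+ replicate 3).

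Gap junction genes gave one of the deepest falls. The connexin cx32.2 had 0 and 0.75 CPM in csf1rDM cells and 427 and 451 CPM in control DsRed+ cells (-8.47 ± 0.48 SE, adjusted p = 8e-05). The connexin cx43 fell to 20.7 and 34.03 CPM in csf1rDM cells against 246 and 347 CPM in control DsRed+ cells (-3.48). The opposite was seen for cx43.4, at 236 and 265 CPM in csf1rDM cells and 47.2 and 43.7 CPM in control DsRed+ cells (2.37 ± 0.16 SE, adjusted p = 0.00012). Each of the 3 genes had replicates on its own side of the other group, as had every gene past the threshold. A further connexin, cx28.1, had no read in csf1rDM cells and 17.8 and 13.4 CPM in control DsRed+ cells.

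Genes of solute carriers held more falls than rises, as did all genes tested. Of 294 solute carriers 35 fell past the threshold (background 5.64%) and 3 rose (background 2.44%). The list median was -0.12, close to that of all genes. Several of the steepest falls were amino acid carriers that work as pairs in mammals. The heavy chain gene slc3a2a was at 2.60 and 1.25 CPM in csf1rDM cells and 317 and 331 CPM in control DsRed+ cells (-6.91). Its light chain partner slc7a7 was at 6.35 and 8.446 CPM in csf1rDM cells against 612 and 624 CPM in control DsRed+ cells (-6.28), and the related slc7a8a (-3.84) and slc7a11 (-3.41) fell too. In zebrafish slc7a7 is needed for the microglia of the brain. The neutral amino acid carrier slc43a2b (-7.26) and the nucleoside carrier slc29a1b (-5.82) fell further than most, as did slc22a21, of the organic cation carrier family (-6.02). The 3 carriers that rose were slc1a2a (2.04), slc17a9a (2.43) and slc44a4 (2.67). Their number was 6 without csf1rDM replicate 2 and 5 without control DsRed+ replicate 3, and slc1a2a was lost on leaving out a library (1.81 without csf1rDM replicate 3).

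Of 19 genes of iron and heme handling, 3 fell past the threshold and 1, the factor gene spic, rose, with a median of -0.09, close to that of all genes. The heme oxygenase hmox1a, which opens the heme ring, had 9.50 and 10.9 CPM in csf1rDM cells and 185 and 175 CPM in control DsRed+ cells (-4.08 ± 0.20 SE, adjusted p = 6.2e-05). The iron exporter slc40a1 had 9.89 and 14.4 CPM in csf1rDM cells against 193 and 116 CPM in control DsRed+ cells (-3.60). The gene cp, for the ferroxidase ceruloplasmin, had 0.400 and 1.75 CPM in csf1rDM cells against 13.4 and 11.9 CPM in control DsRed+ cells (-2.88). Among ion channels of the TRP family 5 of 21 fell, trpv1 by most, at 2.60 and 2.75 CPM in csf1rDM cells and 282 and 265 CPM in control DsRed+ cells (-6.30 ± 0.17 SE, adjusted p = 1.7e-05), together with the lysosomal channels mcoln1a (-2.15) and mcoln3a (-3.54). The call of mcoln1a was lost on leaving out a library (-1.94 without control DsRed+ replicate 3).

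Among the falling genes with the most reads in control DsRed+ cells, several lay outside the lists. The guanine exchange factor rasgef1ba had 88.9 and 118 CPM in csf1rDM cells and 1341 and 1409 CPM in control DsRed+ cells (-3.80 ± 0.18 SE, adjusted p = 5.3e-05). The scaffold gene mpp1 had 58.4 and 51.9 CPM in csf1rDM cells against 757 and 871 CPM in control DsRed+ cells (-3.92). The gene syne1b, whose product links the nucleus to the cytoskeleton, had 62.9 and 43.2 CPM in csf1rDM cells against 733 and 1004 CPM in control DsRed+ cells (-4.08). The cholesterol exporter abca1a had 150.2 and 239.7 CPM in csf1rDM cells and 805 and 816 CPM in control DsRed+ cells (-2.15). The immediate early gene nr4a1 had 179 and 105 CPM in csf1rDM cells and 1100.3 and 1227 CPM in control DsRed+ cells (-3.14), and nr4a3 fell as well (-2.12). The falls of abca1a (-1.83 without csf1rDM replicate 2) and nr4a3 (-1.89 without control DsRed+ replicate 3) did not reach the fold threshold on leaving out 1 library. Of the 40 genes of the stress and immediate early list, often raised by dissociating a tissue, 2 fell past the threshold, near the background of 5.64%. At an adjusted p below 0.05, 15 were lower (background 18.3%) and 2 higher (background 14.1%). Without control DsRed+ replicate 3, 1 fell. The part of dissociation in any difference was not tested.

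**Figure D3:**
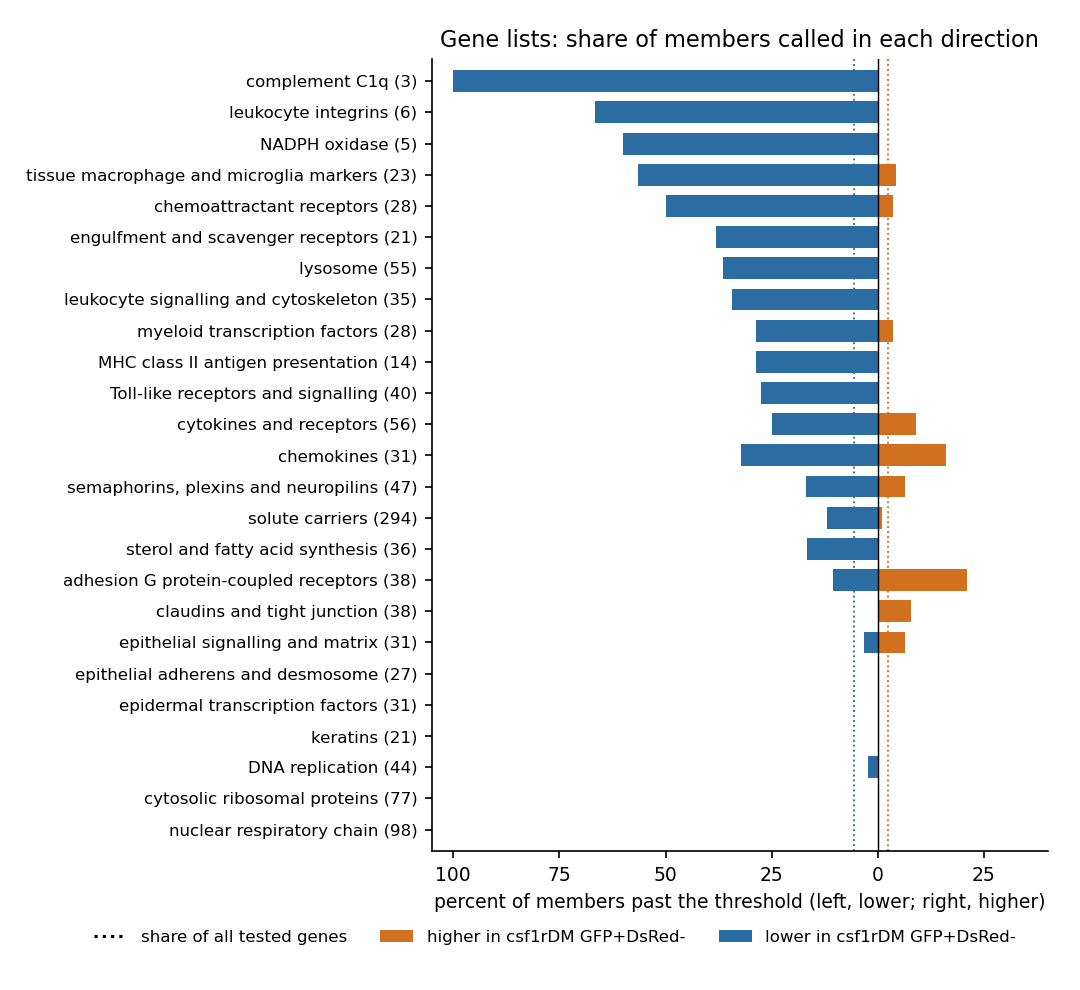
Percent of the measured members of 25 gene lists that passed the threshold, to the left for genes that fell and to the right for genes that rose in csf1rDM GFP+DsRed- cells relative to control GFP+DsRed+ cells, with the number of members in brackets. Dotted lines give the share of all tested genes, 5.64% lower and 2.44% higher; C1q, leukocyte integrin and NADPH oxidase genes lie farthest to the left, and adhesion G protein-coupled receptors farthest to the right.

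The T cell marker gene cd8a was lower in csf1rDM cells, while genes of neutrophils went both ways. The sum of 4 measured T and NK cell markers was 16.8 and 13.2 CPM in csf1rDM cells and 113 and 87.1 CPM in control DsRed+ cells, with each of the 4 above 0 in every library. It was carried by cd8a, at 4.75 and 6.25 CPM in csf1rDM cells against 104 and 74.1 CPM in control DsRed+ cells (-3.85). The kinase gene lck, of T cell receptor signalling, had 6.90 and 2.25 CPM in csf1rDM cells against 7.45 and 11.4 CPM in control DsRed+ cells (-1.08, adjusted p = 0.11). Levels of cd4-1, a gene also known from metaphocytes, were 1.60 and 1.25 CPM in csf1rDM cells and 63.1 and 87.4 CPM in control DsRed+ cells (-5.04). Of a longer list of 19 T and NK lymphocyte genes, 5 fell past the threshold (background 5.64%) and none rose, with a median of -0.69. The sum of 4 B cell markers was 2.199 and 1.999 CPM in csf1rDM cells and 3.099 and 4.797 CPM in control DsRed+ cells. Of a longer list of 15 B lymphocyte genes, 5 fell past the threshold (background 5.64%) and none rose, with a median of -1.215. At an adjusted p below 0.05, 8 of them were lower (background 18.3%) and 2 higher (background 14.1%). The sum of 5 neutrophil markers, of which 1 was at 0 in csf1rDM replicate 3, was higher, at 83.7 and 120 CPM in csf1rDM cells and 35.3 and 18.7 CPM in control DsRed+ cells. Of these mpx, the neutrophil peroxidase, had 1.40 and 30.3 CPM in csf1rDM cells against 2.5 and 0.849 CPM in control DsRed+ cells (1.73, adjusted p = 0.25), its level resting on csf1rDM replicate 3. The longer list of neutrophil and granulocyte genes went both ways, with 3 of 19 rising and 3 falling past the threshold and a median of 0.06. Whether lymphocytes or neutrophils passed the gate was not tested.

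Xanthophore genes were low in both populations and mostly lower in csf1rDM cells. The sum of 5 xanthophore markers was 3.40 and 2.75 CPM in csf1rDM cells and 20.5 and 24.9 CPM in control DsRed+ cells, beside 370 and 322 CPM in control DsRed- cells. Of 11 xanthophore genes 4 fell past the threshold and 9 were lower at an adjusted p below 0.05. Zebrafish without csf1ra function lack most xanthophores, the yellow pigment cells. The part of such cells in these values was not tested. Of 8 melanophore genes 2 fell, one of them the amino acid carrier slc3a2a, which held most of the level of the list in control DsRed+ cells. Of 16 iridophore genes 2 fell past the threshold, 3 were higher and 3 lower at an adjusted p below 0.05, and the median was 0.18. The sum of 3 iridophore markers was 16.6 and 19.4 CPM in csf1rDM cells and 13.2 and 15.4 CPM in control DsRed+ cells.

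Genes that join epithelial cells were higher in csf1rDM cells, mostly by less than the fold threshold. Of 27 adherens junction and desmosome genes, 18 were higher at an adjusted p below 0.05 (background 14.1%), none was lower and none passed the fold threshold, with a median of 1.19. The E-cadherin gene cdh1, which joins epithelial cells to each other, had 1636 and 1686 CPM in csf1rDM cells and 549 and 456 CPM in control DsRed+ cells (1.66 ± 0.17 SE, adjusted p = 0.00063). The desmosomal cadherin dsc2l had 1344 and 1069.8 CPM in csf1rDM cells against 356 and 243 CPM in control DsRed+ cells (1.96, adjusted p = 0.0027). The plakophilin pkp3a, which anchors such cadherins, had 2199 and 2331 CPM in csf1rDM cells against 729.6 and 519 CPM in control DsRed+ cells (1.81, adjusted p = 0.0015). These junction transcripts were thus measured in the control DsRed+ libraries as well, at a lower level. Without control DsRed+ replicate 1, 5 genes of the list passed the fold threshold, and without csf1rDM replicate 3 1 did.

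Tight junction genes went further. Of 38 claudins and other tight junction genes, 3 rose past the threshold, 25 were higher at an adjusted p below 0.05 and 1 was lower, with a median of 1.296. The claudin cldnh (ENSDARG00000069503), a metaphocyte marker, had 297 and 239 CPM in csf1rDM cells and 26.7 and 26.3 CPM in control DsRed+ cells (3.22 ± 0.21 SE, adjusted p = 0.00012). The claudin cldna had 997 and 1013 CPM in csf1rDM cells against 239.8 and 184 CPM in control DsRed+ cells (2.19 ± 0.21 SE, adjusted p = 0.00042). The gene cgna, which encodes the junction scaffold cingulin, had 164 and 159 CPM in csf1rDM cells against 40.1 and 35.0 CPM in control DsRed+ cells (2.02, adjusted p = 0.00032). Of these, cldnh showed by far the largest ratio, with its csf1rDM replicates 0.33 apart on the log2 scale. The occludin gene oclna (1.71), the scaffold tjp3 (1.81) and the claudins cldn7b (1.84) and cldn23a (1.93) stayed below a fold change of 2 on the log2 scale. The number passing was 5 without csf1rDM replicate 3, 6 without control DsRed+ replicate 1 and 1 without control DsRed+ replicate 3, where cldna (1.97) and cgna (1.897) were lost. The tricellular junction gene ildr1a, outside the list, rose as well, at 235 and 237 CPM in csf1rDM cells and 55.0 and 47.9 CPM in control DsRed+ cells (2.12 ± 0.15 SE, adjusted p = 0.00016, 1.99 without control DsRed+ replicate 3).

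Some epidermal regulators were higher in csf1rDM cells. Of 31 transcription factors and splicing factors of the epidermis, 15 were higher at an adjusted p below 0.05 and none passed the fold threshold. The number passing was 3 without csf1rDM replicate 2, 1 without csf1rDM replicate 3 and 3 without control DsRed+ replicate 1, and the list median in all libraries was 0.81. The barrier factor grhl2b had 65.8 and 47.0 CPM in csf1rDM cells against 15.1 and 11.7 CPM in control DsRed+ cells (1.92, adjusted p = 0.0011). The factor of basal keratinocytes, tp63, had 331 and 232 CPM in csf1rDM cells against 139 and 81.1 CPM in control DsRed+ cells (1.31, adjusted p = 0.036). On leaving out 1 library, the log2 fold change was as low as 1.68 for grhl2b (without csf1rDM replicate 2). For tp63 it was as low as 0.90 (without control DsRed+ replicate 3).

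Keratins were higher in the median, though few passed the test singly. The list median was 0.55 (0.26 without control DsRed+ replicate 3), beside -0.08 over all genes. Their summed level was 22325 and 19993 CPM in csf1rDM cells against 17870 and 12875 CPM in control DsRed+ cells. Of 21 keratin genes 2 were higher (background 14.1%) and 1 was lower (background 18.3%) at an adjusted p below 0.05, none past the fold threshold. The lower one was krt8, a keratin of simple epithelia, at 1283 and 1583 CPM in csf1rDM cells and 3754 and 3514 CPM in control DsRed+ cells (-1.41, adjusted p = 0.0036). The keratinocyte marker sum was higher in csf1rDM cells as well, 18442 and 15679 CPM against 12139 and 7906 CPM in control DsRed+ cells, with all 6 markers above 0 in every library. The part of keratinocyte RNA in the junction and regulator genes was not tested. The 6 metaphocyte markers were cldnh, epcam, cdh1, cd4-1, grn2 and spic, and include junction genes. The study's text does not name grn2 and spic, and genes and lists were chosen with earlier results of these data known. The sum of the 6 therefore adds no separate evidence, at 4205 and 4323 CPM in csf1rDM cells and 1253 and 1082 CPM in control DsRed+ cells. Among 4 genes known from metaphocytes, cdh1, epcam and cldnh were higher in csf1rDM cells, while cd4-1 fell (-5.04), at 1.60 and 1.25 CPM in csf1rDM cells against 63.1 and 87.4 CPM in control DsRed+ cells.

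Among 31 genes of epithelial signalling and of the matrix under the epidermis, 18 were higher and 2 lower at an adjusted p below 0.05. The serine protease tmprss4a had 322 and 239 CPM in csf1rDM cells and 49.98 and 45.8 CPM in control DsRed+ cells (2.45 ± 0.22 SE, adjusted p = 0.00036). The receptor kinase egfra had 234 and 255 CPM in csf1rDM cells against 69.0 and 58.2 CPM in control DsRed+ cells (1.86, adjusted p = 0.00047). The csf1rDM replicates of egfra were closer together than those of tmprss4a. The hemidesmosome integrins itgb4 (1.13) and itga6b (1.17), which fix epidermis to the basement membrane, were higher, in contrast to the leukocyte integrins.

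Adhesion G protein-coupled receptors, long surface proteins that sense contact with neighbours and matrix, gave the largest share of rises among lists of 10 or more genes. Of 38 genes 8 rose past the threshold and 4 fell, with a median of 1.05, and 5 rose without csf1rDM replicate 3. The receptor adgrf11 (ENSDARG00000075134) had 35.5 and 25.3 CPM in csf1rDM cells and no read in control DsRed+ cells, at least 102-fold higher against the floor of 3 reads in the shallower control library. Control DsRed- cells had 0 and 0.30 CPM. Some of its relatives rose too. The receptor adgrf3a had 122 and 165 CPM in csf1rDM cells against 25.5 and 10.9 CPM in control DsRed+ cells (2.94). Its copy adgrf3b had 21.1 and 23.4 CPM in csf1rDM cells against 2.40 and 1.9 CPM in control DsRed+ cells (2.85). Both copies were thus higher, as was adgrf6, at 138 and 209.9 CPM in csf1rDM cells against 44.8 and 20.6 CPM in control DsRed+ cells (2.38, 1.81 without control DsRed+ replicate 3). The falls included adgrg3, at 4.55 and 6.25 CPM in csf1rDM cells and 117 and 149 CPM in control DsRed+ cells (-4.46). The family holds near copies in zebrafish, so reads of the adgre and adgrf genes may be shared between members.

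The Eph receptor epha2a, active at epithelial contacts, had 139 and 139.6 CPM in csf1rDM cells and 18.9 and 32.3 CPM in control DsRed+ cells (2.39, adjusted p = 0.00064), the single rise past the threshold among 22 ephrin and Eph genes. That number was 3 without csf1rDM replicate 2 and 2 without either control DsRed+ replicate. The growth factor pdgfd had 60.9 and 63.9 CPM in csf1rDM cells and 5.50 and 6.55 CPM in control DsRed+ cells (3.13 ± 0.19 SE, adjusted p = 9.2e-05). The related pdgfba was lower, at 28.0 and 43.0 CPM in csf1rDM cells against 149.7 and 142 CPM in control DsRed+ cells (-2.11). Members of one growth factor family thus passed in opposite directions, pdgfba narrowly (-1.82 without csf1rDM replicate 2).

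The rising genes with the most reads in csf1rDM cells included tgm1l1, scel, pnp5a and ampd3b. The transglutaminase tgm1l1 had 568 and 845 CPM in csf1rDM cells and 187 and 117 CPM in control DsRed+ cells (2.15). The gene scel, which encodes sciellin, a cornified envelope precursor in mammals, had 546 and 420.1 CPM in csf1rDM cells against 143 and 83.9 CPM in control DsRed+ cells (2.05). The purine nucleoside phosphorylase pnp5a had 1109.7 and 1919.5 CPM in csf1rDM cells against 301 and 304 CPM in control DsRed+ cells (2.2 ± 0.27 SE, adjusted p = 0.0012). The AMP deaminase ampd3b had 373 and 438 CPM in csf1rDM cells against 107 and 70.25 CPM in control DsRed+ cells (2.14). Both csf1rDM libraries exceeded both controls for all 4 genes, as the choice of these genes required, and replicates of pnp5a lay apart in csf1rDM cells. The list of most-read rises also held crybg1b (2.24), znf185 (2.09), rhpn2 (2.19) and the calpain capn2l (2.16). All 8 of these genes of high level lost their call on leaving out 1 library, with pnp5a at 1.81 without csf1rDM replicate 3 and the others at 1.79 (tgm1l1), 1.64 (scel), 1.81 (ampd3b), 1.82 (crybg1b), 1.68 (znf185), 1.99 (rhpn2) and 1.75 (capn2l) without control DsRed+ replicate 3. By smallest adjusted p it further held the actin-oxidising enzyme mical1 (2.24), the TRIM-like gene ftr58 (2.82), unm_sa1506 (3.62) and the zinc finger gene znf1179. Levels of znf1179 were 64.5 and 64.9 CPM in csf1rDM cells and 4.50 and 2.70 CPM in control DsRed+ cells (3.82 ± 0.27 SE, adjusted p = 0.00015), and 4.25 and 3.45 CPM in control DsRed- cells, so that its level in control cells was low with and without DsRed. Zinc finger genes of this kind form large families, and reads may be shared between copies.

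Markers of tissue macrophages were mostly lower in csf1rDM cells. Of 23 markers of tissue macrophages and microglia 13 fell past the threshold (background 5.64%) and 1 rose (background 2.44%), with a median of -2.53. At an adjusted p below 0.05, 17 were lower (background 18.3%) and 2 higher (background 14.1%). The receptor gpr34b, of a family that marks microglia in mammals, had 10.4 and 7.0 CPM in csf1rDM cells and 0.700 and 0.949 CPM in control DsRed+ cells (2.38 ± 0.35 SE, adjusted p = 0.0027). The apolipoprotein apoeb, abundant in zebrafish microglia and also made by skin, had 1097 and 870.4 CPM in csf1rDM cells against 479 and 382 CPM in control DsRed+ cells (1.12, adjusted p = 0.0066). Against these stood mfap4, a zebrafish macrophage marker, with no read in csf1rDM cells and 71.2 and 48.1 CPM in control DsRed+ cells, at least 80.0-fold lower against the 3-read floor of the shallower csf1rDM library. The transgene's own gene, mpeg1.1, on which the sort rests, had 127 and 98.2 CPM in csf1rDM cells and 1196 and 1579 CPM in control DsRed+ cells (-3.68 ± 0.35 SE, adjusted p = 0.00047).

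Zebrafish keep many genes as copies named a and b. Pairs were taken by name alone, as genes whose names differ only in a final a or b. Pairing by name can also join different genes, such as c1qa and c1qb, so these are not counts of true copies. Among 1720 such pairs, both genes differed at an adjusted p below 0.05 in 266, in the same direction in 174 (79 both higher, 95 both lower in csf1rDM cells) and in opposite directions in 92. The pairs were examined after the values were seen, and no test was made. Both genes fell past the threshold in 18 pairs, both rose in 2, and both passed in opposite directions in 4. In the pair of a regulatory subunit of phosphoinositide 3-kinase gamma, pik3r6a had 13.4 and 30.6 CPM in csf1rDM cells and 83.2 and 100.4 CPM in control DsRed+ cells (-2.18). Its copy pik3r6b had 36.5 and 30.1 CPM in csf1rDM cells against 1.1 and 2.65 CPM in control DsRed+ cells (3.60). The other 3 pairs were plekho1a (2.48) and plekho1b (-5.31), snx18a (-2.64) and snx18b (2.51), and the glutamate carriers slc1a2a (2.04) and slc1a2b (-2.15). On leaving out 1 library, pik3r6a (-1.62 without csf1rDM replicate 2), plekho1a (1.82 without csf1rDM replicate 2), slc1a2a (1.81 without csf1rDM replicate 3) and slc1a2b (-1.65 without csf1rDM replicate 2) no longer reached the fold threshold. In 26 pairs 1 gene passed and the other was past the adjusted p alone, with the opposite sign. Among these, cd44b, a copy of the hyaluronan receptor CD44, fell to 1.0 and 1.0 CPM in csf1rDM cells, against 114 and 123 CPM in control DsRed+ cells (-5.98). Its copy cd44a was at 337 and 423 CPM in csf1rDM cells against 141 and 137 CPM in control DsRed+ cells (1.37, adjusted p = 0.0012). For the metalloproteinase ADAM8, known from leukocytes, adam8a was lower (-1.55, adjusted p = 0.027) and adam8b higher (2.09, adjusted p = 0.00066, 1.82 without csf1rDM replicate 3). Copies that fell together included csf1ra and csf1rb, mrc1a and mrc1b, and sema4aa and sema4ab. Sharing of reads between near-identical copies was not tested.

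**Figure D4:**
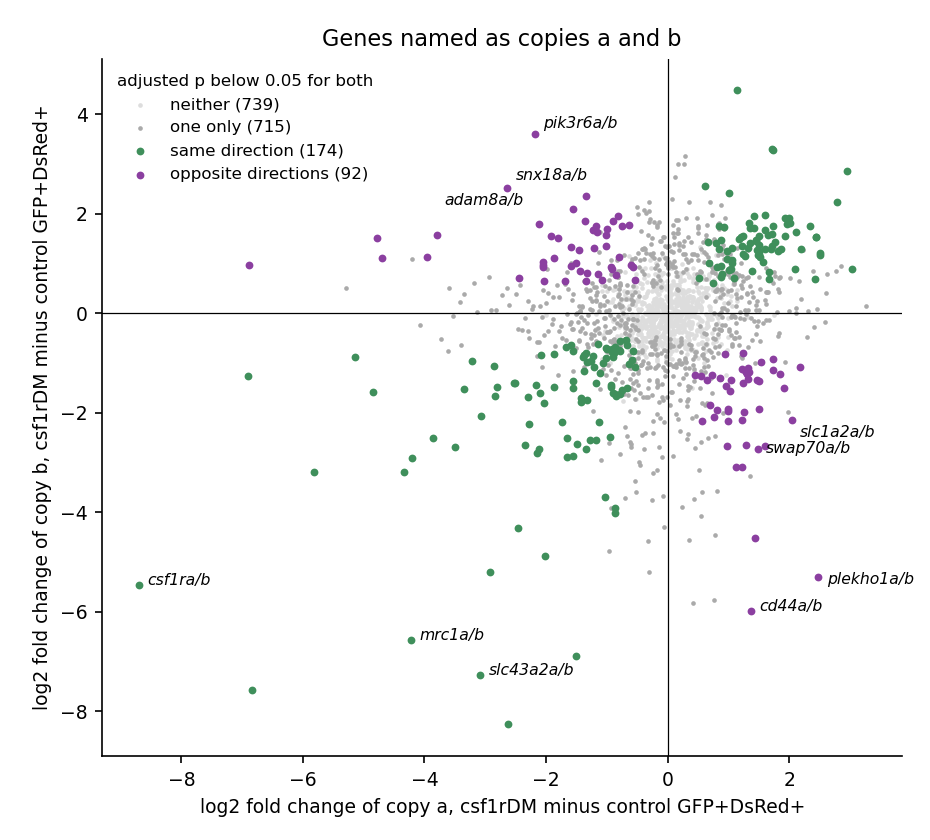
Log2 fold change (csf1rDM GFP+DsRed- minus control GFP+DsRed+) of copy b (vertical axis) against copy a (horizontal axis) for 1720 pairs of genes whose names differ only in a final a or b. Green points are the 174 pairs with both genes past an adjusted p of 0.05 in the same direction, purple points the 92 in opposite directions, among them plekho1a at 2.48 and plekho1b at -5.31. Pairs were taken by name alone and may include genes that are not copies.

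Many genes had like levels in both populations. Of 8571 genes at 10 CPM or more in both groups, 4300 (50.2%) had a 95% interval of the log2 fold change wholly within -1 and 1. They took 42.4% and 43.1% of the reads of the csf1rDM libraries and 41.2% and 41.9% of those of the control DsRed+ libraries. The translation factor eef1a1l1 had 2801 and 2970.4 CPM in csf1rDM cells and 2858 and 2678 CPM in control DsRed+ cells (interval -0.41 to 0.40). The MHC class I light chain b2ml had 2279 and 2319 CPM in csf1rDM cells against 2984 and 2364 CPM in control DsRed+ cells (interval -0.83 to 0.28). The mitochondrial gene mt-co1 had 10478 and 9039 CPM in csf1rDM cells against 7782 and 6119 CPM in control DsRed+ cells (interval -0.13 to 1.00). The other 7 with the most reads were mt-co2 and the chaperones hspa8, hspa4a, hsp90aa1.2, hsp70l, hsp70.2 and hsp70.3, some of which are near-identical copies whose reads may be shared. None of 77 cytosolic ribosomal protein genes, of 98 nuclear genes of the respiratory chain or of 26 hox genes passed the threshold.

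Few genes of cell division passed the threshold, and the mitosis list was lower in the median than all genes. Of 44 DNA replication genes 1 fell past the threshold (background 5.64%), rpa2 (-2.92), with a median of -0.17, beside -0.08 over all genes. Of 36 mitosis genes 1 fell, cdc25b (-2.56), with a median of -0.55. That median was -0.84 without csf1rDM replicate 2 and -0.35 without control DsRed+ replicate 3. At an adjusted p below 0.05, 6 mitosis genes were lower (background 18.3%) and 1 higher (background 14.1%). The DNA topoisomerase top2a, made in dividing cells, had 15.2 and 10.7 CPM in csf1rDM cells and 28.7 and 42.0 CPM in control DsRed+ cells (-1.44, adjusted p = 0.0073).

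Replicates differed more among csf1rDM libraries than among control DsRed+ libraries. At 10 CPM or more, the median absolute difference between replicates was 0.277 on the log2 scale over 9834 genes in csf1rDM cells and 0.198 over 10102 genes in control DsRed+ cells, and 103 genes in csf1rDM cells and 20 genes in control DsRed+ cells differed by more than 2. Sequencing depth, which was lower for csf1rDM cells, moves with this spread, and its part was not tested.

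Within csf1rDM cells, the genes of sterol synthesis differed together between the replicates. Of 36 genes of sterol and fatty acid synthesis, 29 were higher in csf1rDM replicate 2 than in replicate 3 by more than 1 on the log2 scale and none was lower by that much, with a median difference of 3.02. Between the control DsRed+ replicates the median difference was 0.20 and no gene exceeded 1. Levels of hmgcs1, the enzyme that makes the first committed intermediate of the mevalonate pathway, were 863 and 71.3 CPM in csf1rDM cells and 1067 and 830.4 CPM in control DsRed+ cells. Those of cyp51, which removes a methyl group from lanosterol, were 249.9 and 16.9 CPM in csf1rDM cells against 419 and 377 CPM in control DsRed+ cells. In both genes csf1rDM replicate 2 lay within 2-fold of the control DsRed+ libraries and replicate 3 lay far below.

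The group comparison of this pathway therefore rested on 1 library. The list median was -2.11 in all libraries, -0.70 without csf1rDM replicate 3 and -3.78 without replicate 2. The number of its genes falling past the threshold was 6, 1 and 25 in the same order. The 6 were scd (-3.15), fdps (-3.13), insig1 (-2.79), tm7sf2 (-2.70), fads2 (-2.25) and me1 (-2.13), of which scd, the desaturase that makes oleic acid, was the one kept without csf1rDM replicate 3. The calls of fdps and tm7sf2 were each lost in 5 of the 6 fits that left out 1 library. Genes of bile acid and sterol modification split in the same way as the synthesis genes between the csf1rDM libraries. The cytochrome P450 gene cyp8b2 had 297 and 5.75 CPM in csf1rDM cells and 209.6 and 107 CPM in control DsRed+ cells. Its neighbour in name cyp8b3 had 375 and 8.70 CPM in csf1rDM cells and 282 and 140.1 CPM in control DsRed+ cells. The sulfotransferase gene sult2st3 had 1299.9 and 34.3 CPM in csf1rDM cells and 1218 and 578 CPM in control DsRed+ cells. In each of them csf1rDM replicate 2 lay above the control DsRed+ libraries and replicate 3 below them. The bile acid enzyme cyp7a1, at 75.3 and 2.0 CPM in csf1rDM cells and 203 and 381 CPM in control DsRed+ cells, passed with a wide error (-4.27 ± 1.305 SE, adjusted p = 0.044). Its fold change was -1.93 without csf1rDM replicate 3 and -6.625 without csf1rDM replicate 2. Its call was lost in 5 of the 6 fits that left out 1 library.

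**Figure D5:**
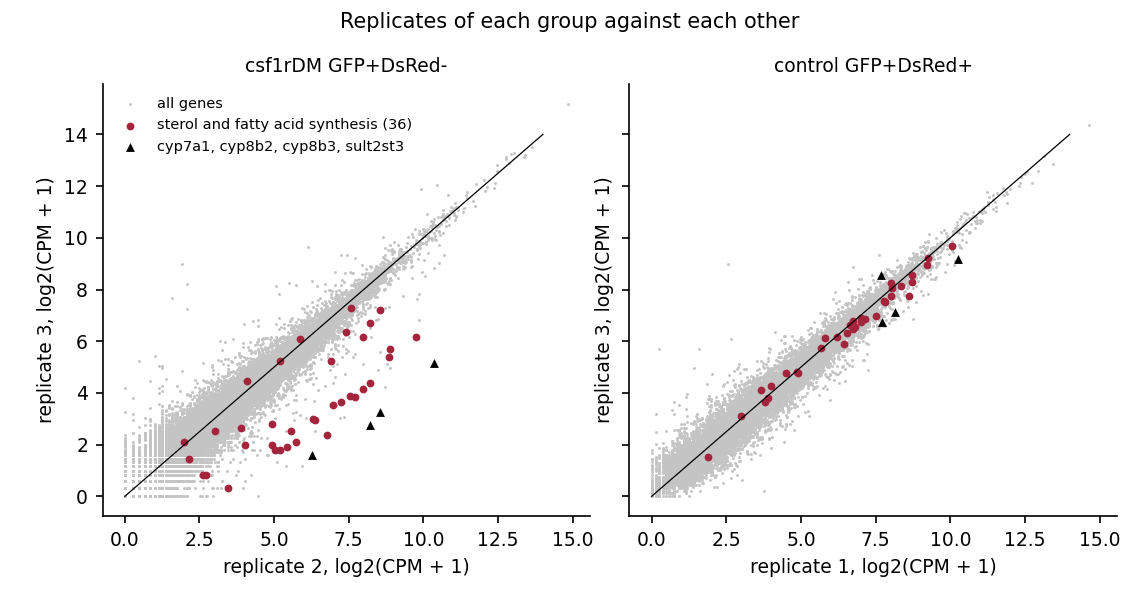
Level in 1 replicate against the other as log2(CPM + 1), 1 point per gene, for csf1rDM GFP+DsRed- cells (left panel) and control GFP+DsRed+ cells (right panel), with the line of equal levels. Red points are 36 genes of sterol and fatty acid synthesis, 29 of which lie more than 1 unit toward replicate 2 in csf1rDM cells, while none differs by more than 1 unit between the control DsRed+ replicates; black triangles are cyp7a1, cyp8b2, cyp8b3 and sult2st3.

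Single genes differed between replicates without a list behind them. The immune gene irg1l had 3.2 and 292 CPM in csf1rDM cells and 0.800 and 1.25 CPM in control DsRed+ cells (4.10, adjusted p = 0.11). The muscle gene ttn.2 had 3.2 and 152 CPM in csf1rDM cells against 8.95 and 6.05 CPM in control DsRed+ cells. The gene igfn1.1, also known from muscle, had 60.5 and 1.25 CPM in csf1rDM cells against 18.2 and 10.14 CPM in control DsRed+ cells. In control DsRed+ cells the widest split was that of the immunoproteasome gene psmb8a, at 0.200 and 51.3 CPM beside 1.60 and 1.25 CPM in csf1rDM cells. None of these 4 passed the test between groups. Collagen I genes were also uneven among csf1rDM cells, with col1a1a at 1462 and 526 CPM, against 2478 and 2480.5 CPM in control DsRed+ cells (-1.56, adjusted p = 0.031), and the sum of 5 fibroblast markers was 2893 and 1136 CPM in csf1rDM cells and 4681 and 4643 CPM in control DsRed+ cells. The part of fibroblast RNA in these values was not tested.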

How the data were processed

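RNA was taken from GFP-positive cells sorted by flow cytometry from skin, and 6 libraries in 3 groups of 2 were sequenced. Per the study's methods and the submitters' processing notes, the authors aligned the reads with STAR (2.5.4b) to GRCz11, counted them per gene of Ensembl release 94 with HTSeq (0.11.0) and used edgeR for their own comparisons. The deposited values are a signal: gene counts multiplied by 1 factor per library, so that each library sums to nearly the same total (20008939 to 20013750), and rounded up. How they were scaled is not given in the sources used here, and was read from the values. Low values rise in steps of a size particular to each library, and at these steps 99.86% or more of the values of each library came out as whole reads (recovery within the rounding up to the next whole number), which gave the depths. They span a 3.68-fold range, and the shallower csf1rDM libraries limit precision at low levels. No column of other samples was present (0 unmatched). CPM was taken from the signal relative to the library total.

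Group differences were tested with limma (3.58.1, R 4.3.3; empirical Bayes with a mean-variance trend) on log2(CPM + 1) with trimmed-mean composition factors (30% of ratios and 5% of levels trimmed), over all 6 libraries and genes with at least 1 CPM in 2 or more of them, with 3 residual degrees of freedom and Benjamini-Hochberg adjustment over 20382 genes. Calls needed both an adjusted p below 0.05 and a change of more than 2 on the log2 scale. The scripts were tested on simulated data with 200 changed genes. Summaries and figures used numpy 2.4.6, pandas 2.3.3 and matplotlib 3.10.9. The genes named are csf1ra, csf1rb, mpeg1.1 and ptprc, in each direction the 12 called genes with the smallest adjusted p and the 12 with the highest level in the group where they are higher (proper symbols of a single identifier, groups not overlapping), the 10 most abundant genes of like levels, the 8 with the widest replicate difference and members of 63 gene lists. Some genes that this rule names are not reported here. The pairs of copies outside these, named in the account of copies, were chosen after their values were seen. The genes compared and the lists were chosen with earlier results of these data known. Alternatives covered composition factors, the pseudocount (0.5 and 2 CPM), the filter (none, 5 CPM), the genes and libraries fitted, the fold threshold, limma's test against a fold change, thinning, omission of the 10 most abundant genes, a replicate block and leaving out each library. Gene names are those of the deposited table. No gene sequences or coordinates are given, since no sequence of the build used was at hand.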

Additional observations from a re-analysis of the deposited data

How the results depend on the processing

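The numbers of genes past the threshold kept within 1.5 times of those reported (1648 in all, 498 higher and 1150 lower in csf1rDM cells) under the alternatives tried, with these exceptions. With a log2 fold threshold of 1, 5039 genes passed, 2229 higher and 2810 lower, since that threshold admits smaller changes. With voom weights on the recovered reads, an alternative added after seeing the data, 920 were higher and 1463 lower, and 492 of the 498 and 1114 of the 1150 genes were shared. Leaving out 1 library at a time gave 1350 to 1835 genes in all, 431 to 606 higher and 919 to 1267 lower, and 3074 to 4069 genes of like levels in place of 4300. In the fits that left 1 library in a group, that library was assumed to vary like those of the other groups, and genes above 1 CPM in a single remaining library were not tested. No called gene changed sign under any of the 21 settings. Of 171 named genes past the threshold, 130 passed it under every setting in which they were tested. Of 1197 list medians recomputed, 119 moved by more than the spread between replicates. The compared groups share a single replicate number, 3, and nothing in the labels ties libraries of the same number to each other. With the replicate number as a block in the fit of 6 libraries, 528 genes were higher and 1141 lower, of which 440 and 1064 were among those reported. The planned edgeR and DESeq2 tests were not run, because they need counts, and the deposited values are a scaled signal that, in 4 of the 6 libraries, steps by whole reads only once the rounding up is allowed for.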
